A study of Rattus norvegicus with 20 samples.

Results

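The nuclear-encoded subunits of oxidative phosphorylation were examined in microdissected cortical collecting ducts of rats. Members were the rows of the count table whose gene symbol follows the naming of complex I (Ndufa, Ndufb, Ndufc, Ndufs, Ndufv and Ndufab1), complex II (Sdha to Sdhd), complex III (Uqcr genes and Cyc1), complex IV (Cox4 to Cox8 genes) or complex V (Atp5 genes), with 10 or more counts in at least 10 of the 20 libraries. Of 32545 genes in the table, 88 rows matched the symbols and 79 of these passed the count filter. The 79 members comprised 33 of complex I, 4 of complex II, 9 of complex III, 13 of complex IV and 17 of complex V. The other 3 were related genes that share the symbols but were not placed in a complex (Cox7a2l, Atp5s and Atp5sl). The rows Ndufv3-ps1 and Atp5hl1 were placed in complex I and complex V. Ndufa4 was placed in complex IV, where the protein is now assigned.

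Oxidative phosphorylation is the final stage of aerobic energy production in the mitochondrial inner membrane. Complexes I and II take electrons from NADH and from succinate, complex III passes them on to cytochrome c, complex IV hands them to oxygen, and complex V uses the proton gradient built on the way to make ATP. In the collecting duct this ATP drives sodium and proton pumps, and the intercalated cells among its epithelium are known to be rich in mitochondria.

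All 20 rats were male Sprague-Dawley rats, 5 weeks old, and all carried a subcutaneous minipump that delivered DDAVP, an agonist of the vasopressin V2 receptor, at 5 ng per hour. Control rats received 25 mL and water-loaded rats 50 mL of water per day in gelled food, and ducts were dissected after 1, 2 or 4 days. The day 1 groups held 3 control and 3 water-loaded rats, the day 2 groups 4 and 4, and the day 4 groups 3 and 3, with 1 library per rat. The treatment protocol in the labels names only the 4-day dissection, whereas the sample titles and the design text give all 3 days. High water intake under constant DDAVP is the model of vasopressin escape, in which the kidney regains water excretion although the hormone signal persists.

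The promoter sequences below belong to the members on which the results turn, and each line gives the 120 bases immediately before the start site on the gene's own strand, taken from RefSeq on build GRCr8 (the counts were made on rn6). The first set shows Sdhd, Ndufv2 and Cox4i1, the members that separated days and libraries most clearly. None of the motifs listed after them occurs in these 3 windows.
Sdhd, chr8:59850642-59850761, minus strand: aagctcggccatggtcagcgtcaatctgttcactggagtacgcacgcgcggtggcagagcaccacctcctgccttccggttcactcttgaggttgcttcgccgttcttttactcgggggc
Ndufv2, chr9:113157521-113157640, minus strand: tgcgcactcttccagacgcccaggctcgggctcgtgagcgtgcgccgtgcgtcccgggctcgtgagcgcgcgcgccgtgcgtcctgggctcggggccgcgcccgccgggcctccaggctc
Cox4i1, chr19:65630263-65630382, plus strand: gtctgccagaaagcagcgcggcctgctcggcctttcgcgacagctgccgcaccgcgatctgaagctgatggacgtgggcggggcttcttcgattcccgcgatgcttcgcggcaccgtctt
The second set shows members that hold a motif in the same window, with the motif in capitals. Atp5o and Ndufa11 hold the palindrome of NRF1, a regulator of respiratory chain genes, Atp5g3 holds the motif of the oestrogen-related receptors, and Cox8a holds the ETS motif bound by GABP (NRF2).
Atp5o (RefSeq Atp5po), chr11:44657484-44657603, minus strand: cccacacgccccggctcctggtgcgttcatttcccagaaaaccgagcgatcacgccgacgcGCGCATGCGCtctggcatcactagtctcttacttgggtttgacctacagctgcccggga
Ndufa11, chr9:1637494-1637613, plus strand: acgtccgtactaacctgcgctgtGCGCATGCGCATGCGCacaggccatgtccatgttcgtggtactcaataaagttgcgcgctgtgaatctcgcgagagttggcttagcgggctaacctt
Atp5g3 (RefSeq Atp5mc3), chr3:79220665-79220784, minus strand: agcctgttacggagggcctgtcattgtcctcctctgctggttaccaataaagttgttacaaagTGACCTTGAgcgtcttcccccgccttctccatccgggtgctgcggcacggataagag
Cox8a, chr1:213833624-213833743, minus strand: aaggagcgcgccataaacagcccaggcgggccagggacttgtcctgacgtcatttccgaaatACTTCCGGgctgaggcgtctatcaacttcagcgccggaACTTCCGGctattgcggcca

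Promoters were found for 63 of the 74 distinct member symbols, and 4 motifs were searched on both strands in the 250 bases before each start site. The NRF1 palindrome, the capitals in Atp5o, was present for 4 of the 63 members (6.35%), against 0.849% of all 27457 promoters, and those members were Atp5g2, Atp5i, Atp5o and Ndufa11. The ETS motif CCGGAAGT was present for 8 (12.7%, against 3.29%), the oestrogen-related receptor motif TCAAGGTCA for 1 (1.59%, against 0.368%) and the YY1 motif AAGATGGC for 2 (3.17%, against 1.69%). No occurrences of different motifs overlapped. These matches describe letters in a window and were not tested for function. Among those not matched were Atp5h, Atp5hl1, Atp5sl, Cox6a1, Cox6c, Cyc1, Ndufa8, Ndufb9, Ndufv3-ps1 and Uqcrb.

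Between 33527913 and 74868598 reads per library were assigned to genes, and 12665 to 15266 genes were detected. Levels per library are given as CPM, read counts scaled to a common library size with TMM factors. All 11 principal cell markers of the collecting duct had counts in at least 1 library, although Elf5 had none in day 4 controls. Aqp2, the vasopressin-regulated water channel, was at a mean of 28840 CPM ± 11930 (SD, n = 10) in control rats. Aqp2 was lower after water loading by 1.07 on the log2 scale (edgeR, adjusted p = 0.0262), in the direction known for vasopressin escape. Day 1 control 1 and Day 1 water-loaded 2 were scaled most, with TMM factors of 0.645 and 0.686, and markers of the proximal tubule, a segment dense in mitochondria, summed to 1106 and 8720 CPM there. In Day 2 control 1 they reached 3097 CPM, and in the other 17 libraries they lay between 66.5 and 489 CPM. All 18 proximal tubule markers had counts in at least 1 library. Thick ascending limb and distal tubule markers summed to 213.9 to 13090 CPM over the libraries. Their sum was highest in Day 1 water-loaded 2, followed by Day 1 control 3 (6506 CPM) and Day 2 water-loaded 4 (5704 CPM). At day 2 the libraries numbered 3 and 4 differed from those numbered 1 and 2 in both treatments, as described below.

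The members were among the more abundant transcripts of the duct. Measured per length in the deposited FPKM and averaged over 20 libraries, the median member level was 294 FPKM in complex I, 308 in complex II, 391 in complex III, 374 in complex IV and 800 in complex V, against 5.63 for all 14472 genes tested. Atp5b, the catalytic beta subunit of ATP synthase, was the most abundant member at a mean of 4543 FPKM (2182 to 7374 across libraries), followed within complex V by Atp5g3, which encodes the c-ring protein, at 2791 FPKM. Cox8a and Cox4i1, small subunits of cytochrome c oxidase, reached 2792 and 2211 FPKM. In complex III the electron-carrying subunits Cyc1 (cytochrome c1) and Uqcrfs1 (the Rieske iron-sulfur protein) led with 1868 and 1385 FPKM. In complex II the membrane anchor Sdhc stood at 1552 FPKM, while Sdhb, the iron-sulfur subunit, Sdha, the flavoprotein, and Sdhd, the second anchor, averaged 322, 294 and 294 FPKM. Complex I was headed by Ndufv2 (944 FPKM), an iron-sulfur subunit of the NADH-binding module, and Ndufb5 (814 FPKM), an accessory membrane subunit.

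**Figure D1:**
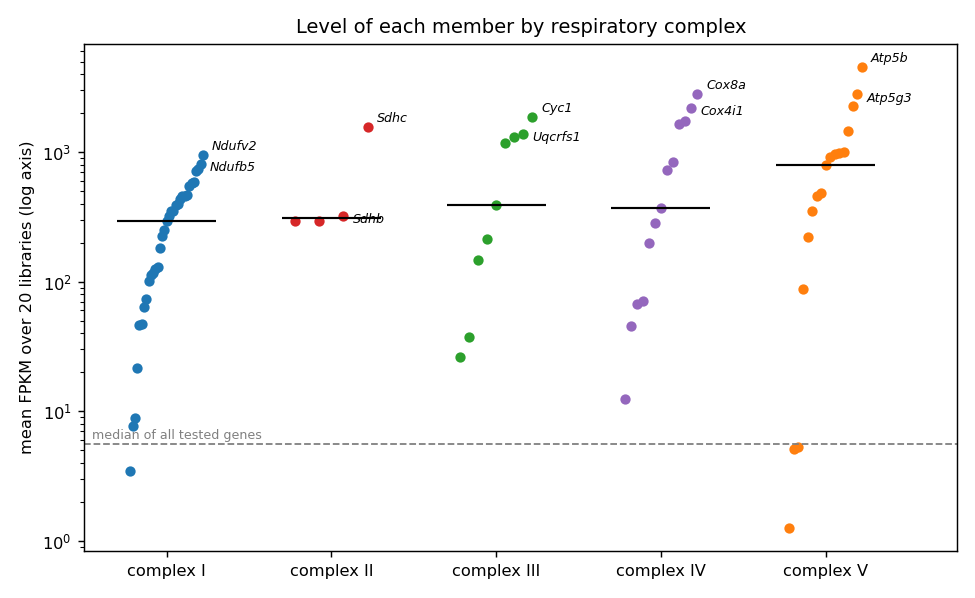
Mean FPKM of each member over 20 libraries (log axis) by respiratory complex; each point is 1 member, black lines are medians and the dashed line is the median of all tested genes at 5.63 FPKM. The 2 highest members of each complex are named, with Atp5b at 4543 FPKM on top.

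Several of the least abundant members were rows with a close copy elsewhere in the table. Atp5hl1, named as a relative of Atp5h, averaged 1.26 FPKM, and the second rows of Ndufa13, Cox7a2 and Uqcr10 averaged 3.43, 12.3 and 26.3 FPKM, against 226, 67.1 and 1185 FPKM for the first rows. Both rows of Atp5f1, the b subunit of the ATP synthase stalk, were near 5 FPKM (5.16 and 5.33). For the 5 symbols with 2 rows, CPM in the paired rows correlated at r = 0.757 to 0.967 over the 20 libraries, which share depth and tissue. Reads that map to more than 1 place entered no gene, so the levels of these 10 rows, of Atp5hl1 and of Ndufv3-ps1 are uncertain.

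The isoforms seen were the ubiquitous ones. Cox4i1 was read at 515 to 5488 CPM, whereas Cox4i2, its lung and hypoxia-linked counterpart, stayed at or below 2.08 CPM. Cox6a1 ranged from 327 to 1710 CPM, and its heart and muscle counterpart Cox6a2 had a count of 0 in all 20 libraries. Cox8b and Cox8c, the muscle and testis forms of Cox8a, had 1 and 2 counts in all libraries together. Cox6b2, a testis form of Cox6b1, reached 4.56 CPM in 1 library and had no counts in 13. Ndufa4l2, the hypoxia-linked relative of Ndufa4, stayed at or below 0.597 CPM, while Ndufa4 ranged from 90.9 to 407 CPM. Cox6c1, Cox7b2 and Ndufb4l1 also fell below the count filter. A count of 0 in a library allows up to 0.0401 to 0.0895 CPM there (3 counts of the total), which covers counting error only.

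Across the 20 libraries the 79 members together took 3.44% to 6.62% of the reads on genes. Their share was 4.57% to 5.37% in day 1 controls, 3.44% to 4.53% in day 2 controls and 3.61% to 4.44% in day 4 controls. In water-loaded rats it was 4.75% to 5.37%, 4.46% to 6.62% and 4.04% to 4.98% on the same days. All 3 day 1 controls lay above all day 2 and day 4 controls, whereas the water-loaded ranges overlapped between days. The highest share belonged to Day 2 water-loaded 4.

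The 5 complexes did not follow a single profile over the 6 groups. Complex IV, averaged over its 13 members as log2 CPM, was 7.79 ± 0.45 (SD, n = 3) in day 1 controls, 6.79 ± 0.53 (n = 4) in day 2 controls and 6.88 ± 0.17 (n = 3) in day 4 controls. In water-loaded rats the complex IV mean was 7.59 ± 0.51 (n = 3), 7.20 ± 0.34 (n = 4) and 7.03 ± 0.45 (n = 3). The lowest day 1 control mean of complex IV, 7.46, lay above the highest day 2 and day 4 control means, 7.26 and 7.06, while the water-loaded groups overlapped. The complex II mean was 8.39 ± 0.34 (n = 3), 9.33 ± 0.62 (n = 4) and 9.43 ± 0.30 (n = 3) on the 3 days in water-loaded rats, and 8.71 ± 0.21 (n = 3), 8.89 ± 0.66 (n = 4) and 8.94 ± 0.48 (n = 3) in controls. Its 4 members differed among themselves. From day 1 to day 4 Sdhd differed by 3.21 on the log2 scale in water-loaded rats, where Sdhb, Sdha and Sdhc differed by 0.84, 0.34 and -0.33, and by 2.81 in controls, where these 3 differed by -0.42, -0.55 and -0.73. Complex I stayed within 6.59 to 6.99 as a group mean and complex V within 7.40 to 7.90, with day 2 controls lowest in both. Complex III was also lowest in day 2 controls, at 7.55 ± 0.32 (n = 4), and highest in day 1 controls, at 8.44 ± 0.34 (n = 3).

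**Figure D2:**
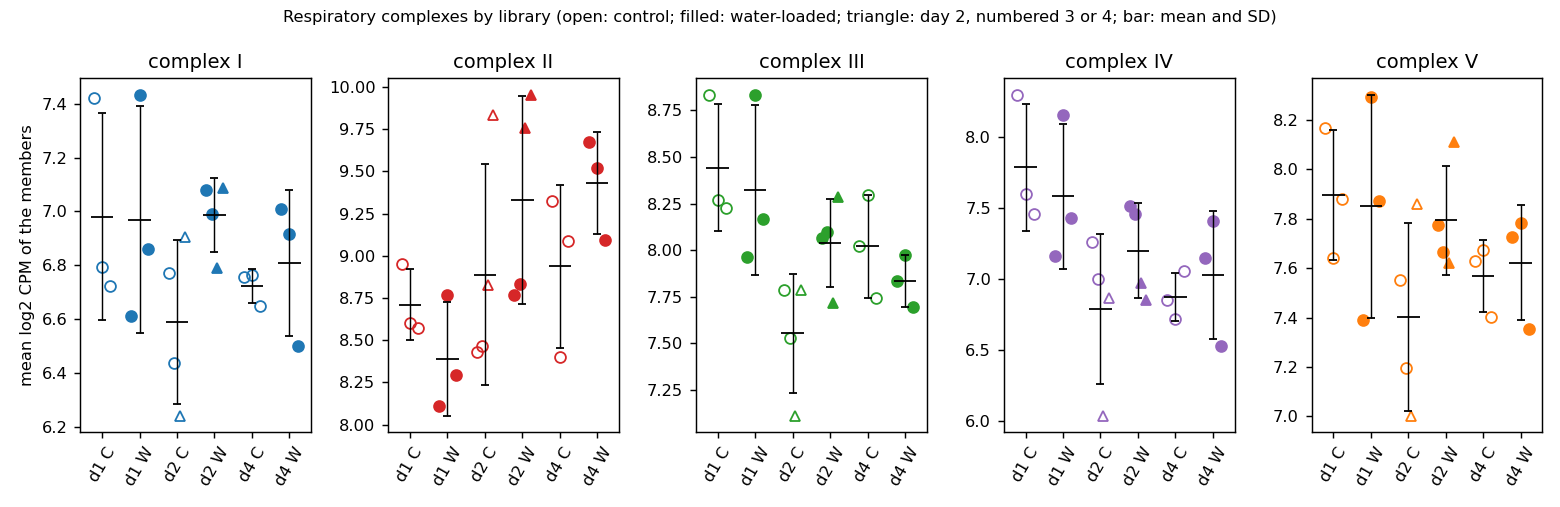
Mean log2 CPM of the members of each complex in each library, for day 1, 2 and 4 (d1, d2, d4), control (C, open) and water-loaded (W, filled) rats; bars are the group mean and SD, triangles are day 2 libraries numbered 3 or 4, and the panels have separate axes. Day 2 controls have the lowest group mean in complexes I, III, IV and V, and the 3 highest day 2 values of complex II, 9.76 to 9.96, are triangles.

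The water-load comparison asks which genes differ during escape, and no member passed its test. With the 3 days averaged, 0 of 79 members passed an adjusted p of 0.05 in edgeR's quasi-likelihood test over all genes, in which 23 of 14472 genes (0.159%) passed. DESeq2 and limma-voom likewise called 0 members. At an unadjusted p under 0.05, 6 members were counted, against 13.5% of all genes. Of these, 3 were higher (7.42% of all genes) and 3 lower (6.05%). The median difference over all members was 0.12 on the log2 scale, with 51 of 79 higher, beside a median of 0.01 and 51.0% higher over all tested genes. In tissue dissected in bulk, fewer cells of a type and less RNA per cell cannot be told apart.

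Uqcrc2, a core protein of complex III, came nearest to the threshold. In control rats it was at 527, 312 and 404 CPM on day 1, at 342, 564, 620 and 1068 on day 2 and at 532, 258 and 526 on day 4. In water-loaded rats it was at 475, 881 and 527 CPM on day 1, at 995, 858, 1389 and 1751 on day 2 and at 721, 721 and 477 on day 4. The groups overlapped on each day, although the water-loaded mean was higher on all 3. The difference was 0.70 (SE 0.22) on the log2 scale, a fold of 1.62, with an adjusted p of 0.177 in edgeR (0.588 to 0.817 on the log2 scale when single libraries were left out). Ndufs1, the largest core subunit of complex I, differed by 0.66 (SE 0.28, adjusted p = 0.304) and Cox8a by -0.42 (SE 0.16, adjusted p = 0.248) in the same fit. With higher and lower members taken separately, the smallest p in a complex also belonged to Ndufa7 among the lower members of complex I (-0.42, adjusted p = 0.349), Sdhb (0.35, 0.422), Cox7b (0.44, 0.425), Atp5a1 (0.33, 0.454) and Atp5d (-0.35, 0.524) by edgeR. Cyc1 and Sdhd gave -0.23 and -0.09.

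Day by day the members leaned in different directions. At day 1, 32 of 79 were higher after water loading and the median log2 difference was -0.05. At day 2, 69 of 79 were higher with a median of 0.36, and at day 4, 43 were higher with a median of 0.05. Over all tested genes the medians were 0.00, -0.05 and 0.00, and 47.5%, 46.7% and 49.1% of genes were higher. No member passed on any day by edgeR, DESeq2 or limma-voom, and edgeR called 0.0% of all genes on each day. The F test of whether the effect differed between days called 0 members as well (0.0% of all genes). Unadjusted p under 0.05 was reached by 0 members at day 1, 9 at day 2, 4 at day 4 and 2 for the difference between days, against 15.6%, 5.23%, 7.22% and 8.56% of all genes. All 9 at day 2 were higher (2.76% of all genes).

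At day 1 the complex medians were 0.01, -0.30, -0.14, -0.23 and -0.0006 from complex I to complex V, with 0 of 4 complex II members and 3 of 13 complex IV members higher. At day 4 they were 0.14, 0.44, -0.36, 0.16 and 0.04. Single libraries turned some of these. Leaving out Day 1 control 1 moved the complex IV median at day 1 to 0.08, and leaving out Day 1 water-loaded 2 moved it to -0.61, while at day 4 it was -0.18 without Day 4 water-loaded 2 and 0.41 without Day 4 water-loaded 3. The complex V median at day 4 was -0.09 without Day 4 control 1.

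The day 2 lean was shared by the 5 complexes. The median log2 difference was 0.32 in complex I (28 of 33 higher), 0.45 in complex II (4 of 4), 0.49 in complex III (8 of 9), 0.53 in complex IV (11 of 13) and 0.31 in complex V (16 of 17). When single libraries were left out these medians ran from 0.18 to 0.45, 0.27 to 0.82, 0.20 to 0.67, 0.28 to 0.56 and 0.19 to 0.44 in the same order. The lowest came without Day 2 control 3 in complexes I and IV and without Day 2 water-loaded 4 in complexes II, III and V, and the highest in complex II without Day 2 control 4. Within the libraries numbered 1 and 2 alone the median over all members was 0.39 with 62 higher, and within those numbered 3 and 4 it was 0.36 with 73 higher. With 4 against 4 rats and no member past the threshold, this remains a description of these libraries.

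**Figure D3:**
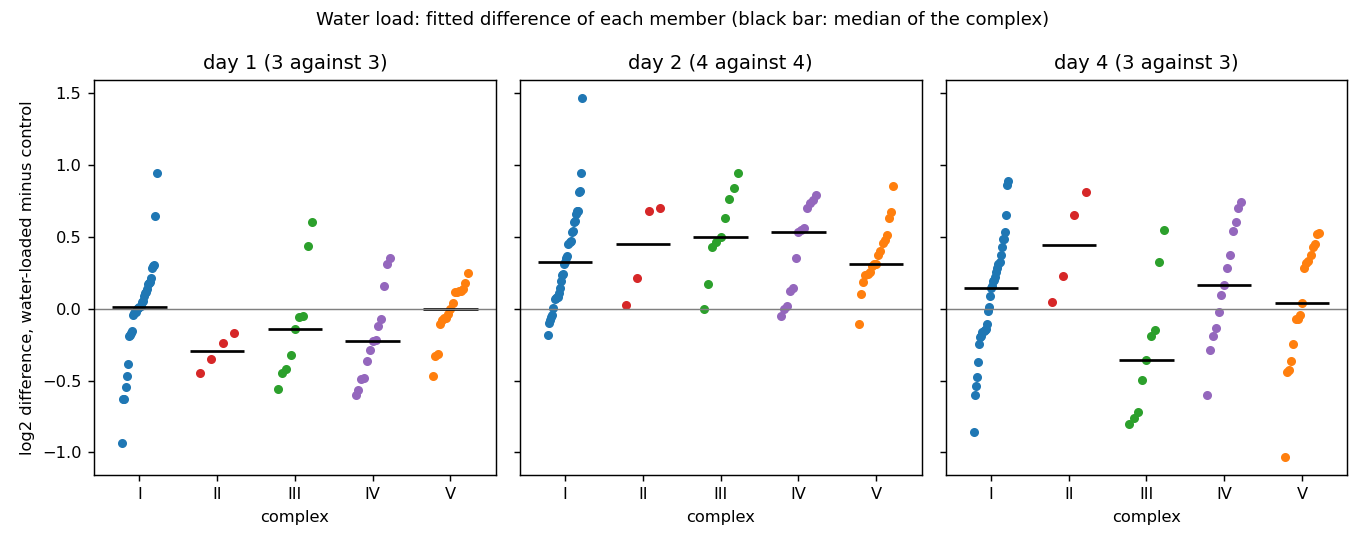
Fitted log2 difference, water-loaded minus control, of each member by complex on day 1, day 2 and day 4; points are members and black bars the medians of each complex. At day 2 the 5 medians lie between 0.31 and 0.53, while at day 1 and day 4 they lie on both sides of 0.

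Ndufs1 had the largest difference at day 2. Control ducts held 90.9, 193, 54.5 and 87.6 CPM and water-loaded ducts 416, 406, 198 and 156 CPM. The first 3 water-loaded values lay above all controls, and the fourth lay below Day 2 control 2. This gave 1.46 (SE 0.44) on the log2 scale, a fold of 2.76, with an unadjusted p of 0.00379 and an adjusted p of 0.855 by edgeR. It was 1.57 within the libraries numbered 1 and 2 and 1.32 within those numbered 3 and 4. Uqcrc2 (0.94, SE 0.34) and Atp5a1, the alpha subunit of the ATP synthase head (0.67, SE 0.28), had the smallest p in complexes III and V, both with an adjusted p of 0.857 by edgeR. In complex IV the smallest p was that of Cox5b, the complex's median member, at 0.53 (SE 0.34). The largest differences in complexes IV and V were 0.79 (SE 0.54) for a Cox6b1 row and 0.85 (SE 0.51) for Atp5j2. The most negative value at day 2 was -0.61 (SE 0.47) for Atp5s, 1 of the 3 related genes, with an unadjusted p of 0.211 by edgeR. Of the lower members in each complex, the smallest p belonged to Ndufa7 (-0.19), Atp5g2 (-0.11), Cox8a (-0.05) and the lower Uqcr10 row (-0.0035). The direction of each of these 4 turned under other settings.

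At day 1 the members nearest the threshold were Cox8a (-0.60, SE 0.29, adjusted p = 0.321), the related gene Atp5sl (0.96, SE 0.47, adjusted p = 0.334) and Ndufc2 (0.94, SE 0.48, adjusted p = 0.353) by edgeR. Ndufc2 was at 36.7, 50.1 and 53.7 CPM in controls and at 47.1, 174 and 47.8 CPM in water-loaded rats. Atp5sl was at 53.2, 127 and 93.6 CPM in controls and at 83.1, 325 and 125 CPM in water-loaded rats. The high value of both was in Day 1 water-loaded 2, the library with the most proximal tubule signal. That library also had the highest sum of thick ascending limb and distal tubule markers, at 13090 CPM. Without it and Day 1 control 1 the Ndufc2 difference was -0.13. Other members singled out at day 1 by the same rule were Ndufa6 (-0.55), Uqcrc2 (0.60), Uqcrh (-0.56), Cox6c (0.35), Atp5c1 (0.25) and Atp5d (-0.32).

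At day 4 Atp5d, the delta subunit of the ATP synthase stalk, was at 2219, 2957 and 928 CPM in controls and at 756, 1032 and 1201 CPM in water-loaded rats. The third control lay within the water-loaded range, and edgeR gave -1.03 (SE 0.39) on the log2 scale with an adjusted p of 0.674. Ndufs7, an iron-sulfur subunit of complex I, gave -0.86 (SE 0.35) and Uqcrq, a small subunit of complex III, -0.76 (SE 0.39), while Ndufb7 (0.65), Uqcrc2 (0.54), Ndufa4 (0.70) and Atp5a1 (0.37) were the nearest to an increase in their complexes and Cox8a (-0.60) the nearest to a decrease in complex IV. Complex III had a median of -0.36 at day 4 with 2 of 9 higher, and complex II a median of 0.44 with 4 of 4 higher.

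Few members separated the treatment groups without overlap. At day 1 there were 2 of 79 (10.9% of all genes), at day 2 there were 3 (4.23%) and at day 4 there were 2 (14.7%). They were Sdhb and Uqcrh, lower at day 1 (5.17% of all genes were), Ndufa10 and Sdha, higher at day 2 (2.35%), Atp5s, lower at day 2 (1.88%), and Ndufa1 and Sdhb, higher at day 4 (7.93%). Ndufa1 was low in counted reads, at 0.432 to 6.27 CPM over all libraries. Reads that map to more than 1 place entered no gene, and their part in this low level was not tested. No member separated all 10 water-loaded from all 10 control libraries (0.0276% of all genes).

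Complex II is the smallest complex and the link between the citric acid cycle and the chain. Its member Sdhb was without overlap on day 1 and on day 4, in opposite directions. On both days the share of such members, 2.53%, lay under that of all genes (10.9% and 14.7%). Sdhb was at 364, 250 and 296 CPM in day 1 controls and at 199, 234 and 235 CPM in day 1 water-loaded rats. At day 2 it was at 214, 208, 178 and 427 CPM in controls and at 323, 328, 454 and 540 CPM in water-loaded rats, and at day 4 at 227, 190 and 265 CPM against 474, 445 and 276 CPM. Water-loaded ducts were thus lower on day 1, higher on day 4 and overlapped through Day 2 control 4 on day 2. The log2 differences were -0.45 (SE 0.32), 0.68 (SE 0.28) and 0.81 (SE 0.33), and the difference between days had an unadjusted p of 0.0225 and an adjusted p of 0.502 by edgeR's F test. Sdha was at 438, 717, 350 and 747 CPM in day 2 controls and at 791, 939, 1059 and 860 CPM in day 2 water-loaded rats. All 4 water-loaded values lay above the controls, with a log2 difference of 0.70 (SE 0.31, adjusted p = 0.907 by edgeR). Sdhc ranged from 1045 to 2492 CPM in controls and from 1361 to 2971 CPM in water-loaded rats.

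More members passed a test between days than between treatments. Among control rats, 9 of 79 members differed between days 1, 2 and 4 by edgeR's F test, where 355 of 14472 genes (2.45%) passed. They were Cox4i1, Cox8a and Cox5a of complex IV, Ndufv2, Ndufa6 and Ndufs7 of complex I, Atp5h and Atp5g3 of complex V and Uqcrq of complex III, with adjusted p from 0.0084 to 0.0459. At an unadjusted p under 0.05 there were 31 members (22.5% of all genes). The count rested on single libraries. It was 0 when Day 1 control 1 was left out, 2 when Day 4 control 1 was, and 5 when Day 1 control 2 or Day 4 control 2 was. DESeq2 called 20.

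Cox4i1, the regulatory subunit IV of cytochrome c oxidase, was at 5488, 2812 and 2856 CPM in day 1 controls, at 1336, 1469, 515 and 1293 CPM in day 2 controls and at 860, 822 and 864 CPM in day 4 controls. All day 1 values lay above all later values, and only Day 2 control 3 lay below day 4. Cox4i1 fell by 1.69 (SE 0.34) on the log2 scale from day 1 to day 2 and by 2.13 (SE 0.38) from day 1 to day 4, with adjusted p of 0.0256 and 0.0109 by edgeR. In water-loaded rats it was at 1691, 4146 and 2159 CPM on day 1, at 1425, 1348, 1056 and 1254 CPM on day 2 and at 1212, 1045 and 833 CPM on day 4. The day 1 values were again the highest, and the difference from day 1 to day 4 was -1.37 (SE 0.37, adjusted p = 0.109 by edgeR).

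Ndufv2 had the lowest adjusted p of all members from day 1 to day 4 in both treatments. Control ducts held 2249, 1846 and 1662 CPM on day 1, 909, 1146, 303 and 424 CPM on day 2 and 250, 364 and 241 CPM on day 4. Water-loaded ducts held 1194, 2818 and 1164 CPM on day 1, 924, 869, 418 and 576 CPM on day 2 and 284, 241 and 195 CPM on day 4. In both treatments each day 1 value exceeded each day 2 value, and day 4 lay below day 1 without overlap. Ndufv2 fell by 2.75 (SE 0.47) in control and by 2.85 (SE 0.47) in water-loaded rats from day 1 to day 4 on the log2 scale, folds of 6.73 and 7.19, with adjusted p of 0.00804 and 0.0125 by edgeR. It was the 1 member called among days in water-loaded rats (adjusted p = 0.0203, 0.263% of all genes). Leaving out Day 1 water-loaded 2 ended that call (adjusted p = 0.147), as did leaving out any 1 of the day 4 water-loaded libraries (0.0635 to 0.0839).

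Between day 1 and day 2 in control rats, 3 members passed and all were lower, where 1.34% of all genes passed in either direction and 0.795% were lower. Besides Cox4i1 these were Cox8a and Ndufa6, an accessory subunit of complex I. Cox8a was at 3328, 2583 and 2222 CPM on day 1 and at 1187, 1049, 915 and 1071 CPM on day 2, without overlap, and fell by 1.36 (SE 0.27). Ndufa6 was at 1258, 623 and 580 CPM and at 366, 288, 174 and 240 CPM, also without overlap, and fell by 1.62 (SE 0.33), both with an adjusted p of 0.0256 by edgeR. No member passed when Day 1 control 1, Day 2 control 3 or Day 2 control 4 was left out. Leaving out Day 1 water-loaded 1 or 2 gave 5 and 7 members. By complex, the median log2 difference was -0.44 in complex I, -0.25 in complex II, -1.02 in complex III, -0.94 in complex IV (0 of 13 higher) and -0.18 in complex V, beside 0.13 over all tested genes. In water-loaded rats the medians were -0.05, 0.79, -0.38, -0.12 and -0.10, and 0 members passed (0.187% of all genes by edgeR). At an unadjusted p under 0.05 there were 17 members (13.8% of all genes). DESeq2 called 3 members, given without its share of all genes.

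From day 1 to day 4 in control rats 6 members passed and all of them fell, where 2.4% of all genes passed in either direction and 1.5% were lower. They were Ndufv2, Cox4i1, Cox5a, Atp5b, Atp5g3 and Atp5h. Atp5h, the d subunit of the ATP synthase stalk, was at 1133, 1039 and 916 CPM on day 1 and at 293, 368 and 337 CPM on day 4, and fell by 1.63 (SE 0.35, adjusted p = 0.0196 by edgeR). Atp5b was at 9990, 12260 and 9791 CPM and at 4023, 6781 and 3718 CPM, and fell by 1.14 (SE 0.30, adjusted p = 0.0492 by edgeR). Cox5a, a nuclear subunit that sits beside Cox4i1, and Atp5g3 fell by 1.45 (SE 0.35) and 1.40 (SE 0.29). Each of these 4 members had its day 1 and day 4 controls apart. Leaving out Day 1 control 1, Day 4 control 1 or Day 4 control 3 gave 1, 0 and 2 members. In water-loaded rats Ndufv2 was the 1 member that passed (0.242% of all genes, 0.214% lower). None passed when Day 1 water-loaded 2 or any 1 of the day 4 water-loaded libraries was left out, and 5 passed when Day 2 control 3 was. Another 8 single omissions (number 1 of the day 1 controls, numbers 1 and 3 of the day 1 water-loaded rats, numbers 2 and 4 of the day 2 controls, number 4 of the day 2 water-loaded rats and numbers 2 and 3 of the day 4 controls) gave 2 or 3 members.

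By complex, the median log2 difference from day 1 to day 4 in controls was -0.35 in complex I, -0.48 in complex II, -0.26 in complex III, -0.94 in complex IV (1 of 13 higher) and -0.20 in complex V, beside 0.00 over all tested genes. In water-loaded rats it was 0.03, 0.59, -0.47, -0.76 and -0.05 in the same order, beside 0.01 over all genes. Scaling to total reads alone turned complex V in water-loaded rats to 0.39, and log2(FPKM + 1) turned complex I in controls to 0.041, while complex IV stayed under 0 in both treatments under these settings.

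The day 4 and day 1 libraries did not overlap for 31 of 79 members in control rats (21.1% of all genes) and for 29 in water-loaded rats (23.8%). Of the 31, 24 were lower (10.4% of all genes) and 7 higher (10.7%) at day 4, and of the 29, 22 were lower (10.4%) and 7 higher (13.4%). Atp5o, the oligomycin-sensitivity subunit of the stalk, Atp5i, Ndufa11 and Sdhd were higher at day 4 in both treatments. The remaining members called over days in controls, Ndufs7 and Uqcrq, had other profiles. Ndufs7 was at 398, 247 and 310 CPM, then 256, 193, 281 and 310 CPM, then 751, 903 and 385 CPM over the days in controls, with the highest mean at day 4, although Day 4 control 3 lay below Day 1 control 1. Uqcrq was lowest in the middle, at 402, 198 and 217 CPM, then 143, 72.4, 120 and 132 CPM, then 396, 562 and 205 CPM. Between day 2 and day 4 no member passed in either treatment (0.0% of all genes each by edgeR). At an unadjusted p under 0.05 there were 14 members in control (11.3% of all genes) and 12 in water-loaded rats (4.84%). DESeq2 called 2 and 0 members, given without its shares of all genes. The complex medians from day 2 to day 4 were 0.11, -0.24, 0.43, -0.06 and -0.02 in controls and -0.07, -0.18, -0.50, -0.30 and -0.49 in water-loaded rats.

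Several measures moved with the days beside the members. Reads on genes spanned 44480814 to 60678591 at day 1 and 33527913 to 48872542 at day 4. Members are short, with a median length of 708 bases implied by counts and FPKM against 2067 for all tested genes, and in the quintile of genes with the shortest implied length the median log2 difference from day 1 to day 2 in controls was -0.37, against 0.06 in the longest quintile. The shortest quintile held 55 of the 70 members so classed. From day 1 to day 4 in controls, markers of intercalated cells, which are rich in mitochondria, were higher for 10 of 13 genes, with Kit and Foxi1 past the threshold. Proximal tubule markers were lower for 11 of 18 genes, endothelial markers for 8 of 8, and fibroblast and pericyte markers for 5 of 6. Slc27a2 of the proximal tubule and Col1a1 of fibroblasts were past the threshold, where 2.4% of all genes passed. Day 1 controls held 59.54, 12.95 and 0.0329 CPM of Slc27a2 and 151, 0.3114 and 1.15 CPM of Col1a1, both highest in Day 1 control 1. In day 4 controls both genes were at or below 0.0553 CPM. The part of these measures in the members' differences was not tested. With the proximal tubule score in the model, 16 members differed between days in controls. With the number of detected genes in the model, no member passed from day 1 to day 2 in controls. The first count is from the F test over days and the second from day 1 to day 2, so they cannot be compared. Both are given without the share of all genes. Neither count tests what lay behind the differences.

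**Figure D4:**
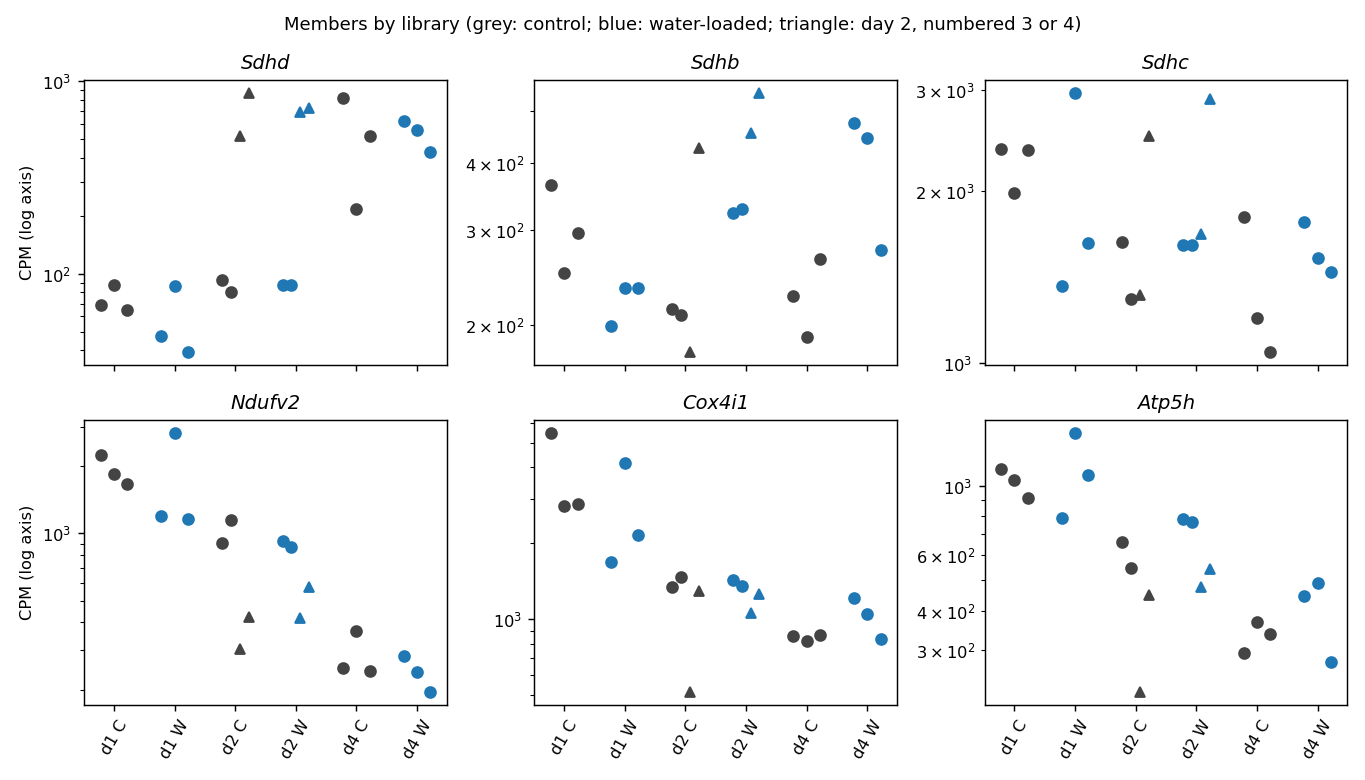
CPM (log axis) of Sdhd, Sdhb, Sdhc, Ndufv2, Cox4i1 and Atp5h in each library by group (d1, d2, d4 for the days, C control, W water-loaded); triangles are day 2 libraries numbered 3 or 4. For Sdhd the 4 triangles (519 to 872 CPM) lie with day 4 and the other day 2 libraries (80.2 to 92.8 CPM) with day 1.

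Sdhd, which anchors complex II in the membrane, divided the libraries into a low and a high set. It was at 69.0, 87.2 and 64.6 CPM in day 1 controls and at 47.5, 86.4 and 39.2 CPM in day 1 water-loaded rats. At day 2 it was at 92.8, 80.2, 519 and 872 CPM in controls 1 to 4 and at 87.7, 87.5, 695 and 722 CPM in water-loaded rats 1 to 4. At day 4 it was at 815, 217 and 520 CPM in controls and at 619, 557 and 427 CPM in water-loaded rats. The day 2 libraries numbered 1 and 2 thus fell with day 1 and those numbered 3 and 4 with day 4, in both treatments and with a gap from 92.8 to 217 CPM. Sdhd did not pass the test from day 1 to day 4 (2.81, SE 0.88, adjusted p = 0.0913 in controls and 3.21, SE 0.90, adjusted p = 0.124 in water-loaded rats by edgeR). None of Sdha, Sdhb and Sdhc split the libraries this way.

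These 2 sets were read from the values of Sdhd, so its own separation was given in advance. With Sdhd counted, 6 of 79 members separated the same 2 sets of 10 libraries, against 1.12% of all genes. The 2 Cox7a2 rows among them share a symbol and correlated at r = 0.919 over the 20 libraries. Sdhd was the 1 higher in the later set (0.276% of all genes), and Atp5h, Cox4i1, Ndufv2 and both rows of Cox7a2, a small subunit of complex IV, were lower (0.843%). Within day 2 alone, 25 of 79 members did not overlap between numbers 3 and 4 and numbers 1 and 2 (13.4% of all genes), 16 lower (6.0%) and 9 higher (7.39%) in numbers 3 and 4. The lower ones included Uqcrb (-2.24 on the log2 scale), the main Cox7a2 row (-1.91), Uqcrh (-1.63), Atp5j2 (-1.57) and Ndufs4 (-1.48), as well as Cox4i1 and Ndufv2, and the higher ones Sdhd (2.99), Atp5o and Cox6a1. By complex the median was -0.52 in complex IV (2 of 13 higher), -0.09 in complex I, 0.25 in complex V, 0.32 in complex III and 0.44 in complex II. A difference of more than 1 on the log2 scale was seen for 22 of 79 members (27.8%), against 37.3% of all tested genes.

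The labels give no batch, and what separates the numbers at day 2 was not tested. The numbers 3 and 4 had 14490 to 15266 genes detected, against 13322 to 14373 for numbers 1 and 2, and reads assigned to more than 1 place were 21.3% to 25.5% against 22.9% to 26.9%. Endothelial markers summed to 632 to 982 CPM against 84.6 to 425 CPM. The 13 mitochondrially encoded subunits summed to 25940 to 44930 CPM in numbers 3 and 4 and to 83670 to 146300 CPM in numbers 1 and 2. The control difference from day 2 to day 4 in complex IV turned with the libraries kept, from a median of -0.06 with all to -0.49 without numbers 3 and 4 and 0.51 without numbers 1 and 2. The 3 calls from day 1 to day 2 in controls became 0 without numbers 3 and 4 and 5 without numbers 1 and 2.

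**Figure D5:**
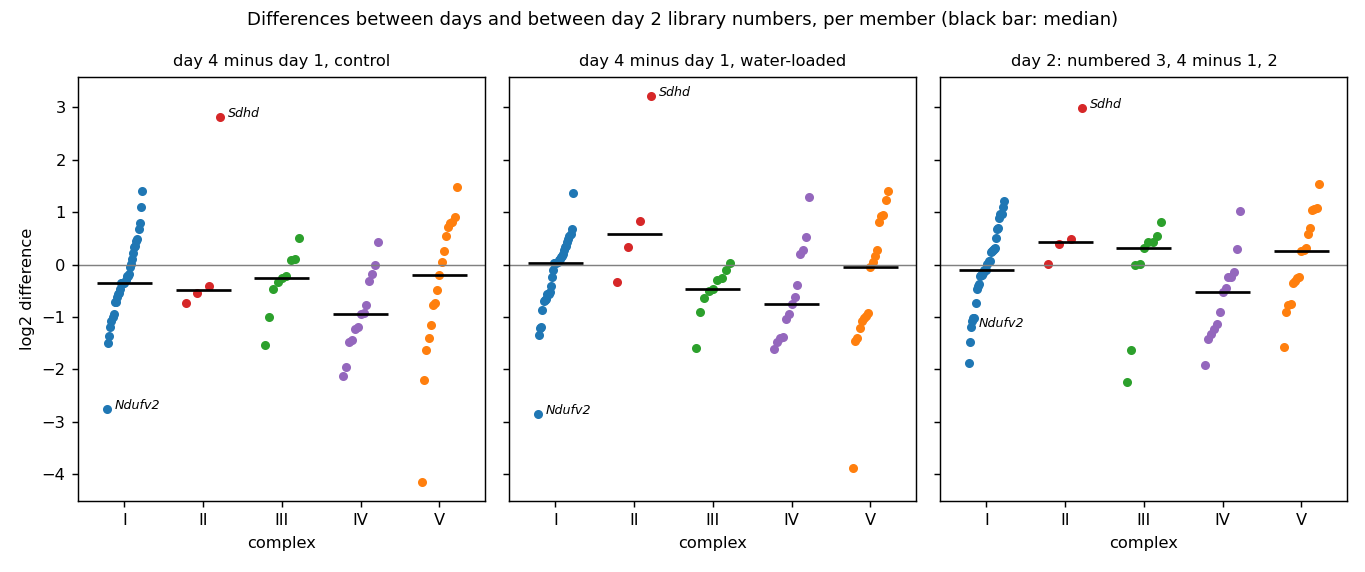
Log2 differences of each member by complex, from day 1 to day 4 in control (left) and water-loaded rats (middle) and between day 2 libraries numbered 3 and 4 and those numbered 1 and 2 (right); black bars are medians. Sdhd lies at 2.81, 3.21 and 2.99 in the 3 panels, and complex IV has a median under 0 in each.

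Genes that serve the complexes were not called for water load either. Over the average of days edgeR called 0 of 39 assembly factors and 0 of 17 regulators of mitochondrial biogenesis. It called 0 of 16 genes of pyruvate dehydrogenase and the citric acid cycle and 0 of 20 electron carriers and ATP exporters. Of the mitochondrially encoded subunits it called 0 of 13, and of all genes 0.159%. At an unadjusted p under 0.05 there were 2, 1, 2, 3 and 1 genes in the same order, against 13.5% of all genes. The median log2 differences of these lists were 0.09, -0.24, 0.26, 0.22 and 0.07. Cycs, cytochrome c itself, was at 154 CPM ± 64.8 (SD, n = 10) in controls and 247 ± 111 (n = 10) after water loading, a log2 difference of 0.68 (SE 0.24, adjusted p = 0.223 by edgeR). Esrra, an oestrogen-related receptor that acts on respiratory genes, was at 314 ± 141 CPM (n = 10) and 213 ± 97.5 CPM (n = 10), a difference of -0.59 (SE 0.20, adjusted p = 0.202 by edgeR). Uqcc1, an assembly factor of complex III, gave 0.97 (SE 0.27, adjusted p = 0.135 by edgeR).

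The subunits encoded in the mitochondrial genome are part of complexes I, III, IV and V. From day 1 to day 4 they were lower for 11 of 13 in controls (median -1.47) and for 13 of 13 in water-loaded rats (median -2.11), with 4 of 13 (against 21.7% of all genes) and 10 of 13 (13.9%) at an unadjusted p under 0.05 and 0 called by edgeR. Their summed level was 47970 to 95670 CPM in day 1 controls and 29840 to 34830 CPM in day 4 controls, and 68990 to 105700 CPM against 20100 to 29530 CPM in water-loaded rats, without overlap in either. At day 2 they ranged over both sets, as given above. Of the citric acid cycle and pyruvate dehydrogenase genes, 1 of 16 was called from day 1 to day 4 in each treatment. Among all genes 2.4% passed in controls and 0.242% in water-loaded rats. The called gene is named here after its values were seen. It was Suclg1, a subunit of succinyl-CoA synthetase, which makes the succinate that complex II oxidises, and it fell by 2.18 (SE 0.31) in control and by 1.93 (SE 0.31) in water-loaded rats on the log2 scale, with adjusted p of 0.00427 and 0.0102 by edgeR. Cox20, an assembly factor of complex IV, fell by 2.03 (SE 0.46, adjusted p = 0.0261 by edgeR) in controls. It was the 1 of 39 assembly factors called there, against 2.4% of all genes. Ppargc1b, a coactivator of mitochondrial biogenesis, was higher at day 4 than at day 1 in controls (adjusted p = 0.0370 by edgeR). It was the 1 of 17 biogenesis regulators called there, against 2.4% of all genes. It had 0, 8 and 1 counts in day 1 controls and was at 17.5, 8.27 and 2.03 CPM in day 4 controls, so its fitted fold is not given. In water-loaded rats it was at 3.22, 0.212 and 8.26 CPM on day 1 and at 11.6, 2.85 and 7.06 CPM on day 4, with overlap.

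Within groups the members had a smaller median spread than all tested genes, but a larger one than genes at or above their median level. The pooled SD of log2 CPM within groups had a median of 0.54 over the members, against 1.40 over all tested genes and 0.44 over the 627 tested genes at or above the members' median level. It was smallest for Ndufb8 (0.25) and largest for Ndufs5 (1.43), both accessory subunits of complex I. Ndufb8 ranged from 173 to 404 CPM over the 20 libraries and Ndufs5 from 3.40 to 61.3 CPM. Of the related genes, Cox7a2l, which joins complexes into supercomplexes, ranged from 177 to 711 CPM, Atp5s from 17.3 to 145 CPM and Atp5sl from 53.2 to 325 CPM. Atp5s was at 33.2, 28.8, 36.5 and 32.1 CPM in day 2 controls and at 22.1, 17.3, 21.1 and 25.4 CPM in day 2 water-loaded rats, without overlap, and differed by -0.73 over the average of days (SE 0.30, adjusted p = 0.280 by edgeR).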

How the data were processed

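RNA-seq of 20 libraries was used. Per the labels' protocols, dissected tubules were lysed and reverse transcribed with a single-cell cDNA method and made into libraries from sheared cDNA, so reads are not independent molecules. The authors deposited read counts per gene (HTSeq) and FPKM values for the same 20 libraries; per the submitters' processing notes, Trimmomatic 0.32, STAR 2.4.0.1 and SAMtools were used on build rn6. Annotation and strand setting remain not given in the sources used here, as does duplicate handling. Lines of the count files that stand for no gene took 31.5% to 35.6% of reads and stayed out, most of them reads mapped to several places (21.3% to 26.9%). Deposited FPKM equalled count per implied length and total within 0.1% for all 13538 genes compared.

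The deposited counts entered edgeR 4.0.16 (R 4.3.3) with TMM, filterByExpr, 1 mean per group, quasi-likelihood tests, and Benjamini-Hochberg adjustment over 14472 genes at a threshold of 0.05. CPM printed are TMM-scaled, and group scores use log2 CPM with a prior count of 2. The fit was also run on simulated counts with 4-fold changes, and the outcome is not reported here. Those changes were larger than any member's water-load difference over the average of days, so the run does not bear on smaller differences. Counts and FPKM show spread between rats; each group has 3 or 4, each rat 1 library.

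The members and lists were chosen with earlier results of these data known. Members named in the text were those called (at most 10 per test), the smallest p in each direction per complex and water-load contrast, the 2 highest and the lowest FPKM per complex, isoform pairs, the Sdh genes and the extremes of spread. Members named for the day 2 numbers, genes of the day 1 to day 4 comparison, and Atp5s, Atp5sl, Cox6b1 and Atp5j2 in the water-load comparison were named after their values were seen. Replicate numbers pair day 2 libraries by the rule used (same-number correlations of deviations 0.147 to 0.237, from the data and not the labels), and not those of day 1 (-0.0595 to 0.0595) or day 4. Other-number pairs within numbers 1 and 2 or within 3 and 4 correlated at 0.111 to 0.204, so the day 2 values show the 2 sets of numbers rather than single pairs. Alternatives were DESeq2 1.42.0, limma-voom (limma 3.58.1), other scalings and filters, log2(FPKM + 1) and log2(FPKM + 0.1), a replicate block, covariates and leaving out libraries. Those on the day 2 numbers, and the day 1 to day 4 comparison, were chosen after seeing the data. Results for some single genes are not reported here.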

Additional observations from a re-analysis of the deposited data

Results flagged for a closer look

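In groups of 4 libraries, a single value can lie farther from the others than Dixon's 95% limit for the gap over the range allows. This was tested for 98 groups of values in the day 2 rats, and 7 passed, a share near the 1 in 20 that chance gives. Members were partly named for small p or extreme values, and members of 1 library are not independent. The values below are therefore a description of single libraries. A set of 4 members had their high value in Day 2 water-loaded 4, the library with the largest share of member reads. Thick ascending limb and distal tubule markers summed to 5704 CPM there, against 353.6 to 1166 CPM in day 2 controls. Their part in these values was not tested. Atp5c1, the gamma subunit that turns in the head of ATP synthase, was at 2766 CPM there against 1550 to 1655 CPM in the other day 2 water-loaded rats. Sdhc was at 2893 CPM against 1605 to 1682 CPM, Uqcrfs1 at 2987 CPM against 940 to 1224 CPM, and Cox5b at 467.8 CPM against 324 to 329 CPM. Cox8a had its lowest value in Day 2 water-loaded 3, at 723.7 CPM against 1084 to 1142 CPM. In day 2 controls, replicate 4 was high for Sdhb, at 427 CPM against 178 to 214 CPM, and for the lower Ndufa13 row, at 2.658 CPM against 1.07 to 1.21 CPM.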

How the results depend on the processing

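The count of 0 members called for water load, over the average of days, at each day and for the difference between days, was the same under each alternative run. The replicate block gave 9 members over days in controls, Ndufs7 and Uqcrq no longer among them, and 8 from day 1 to day 4 in controls. The pairing by number meets the rule used at day 2 from the data alone, where other-number pairs within the same set of numbers correlated about as highly. The single members whose sign turned had not passed the test. The values from the test as described stand in the report, and the cause of each change below was not tested. Counts of called members below are given without the share of all genes called under the same setting. A higher or lower count is therefore not read as a result about the members. Without TMM factors the median over all genes moved from 0.01 to 0.14 for water load over the days, from 0.13 to 0.33 from day 1 to day 2 in controls and from 0.01 to 0.35 from day 1 to day 4 in water-loaded rats. Each group had 3 or 4 rats, and the part of depth was not tested beyond the filters on low counts. With DESeq2, members called numbered 20 over days in controls, 7 over days in water-loaded rats, 19 from day 1 to 2 in controls, 2 from day 2 to 4 in controls, 3 from day 1 to 2 in water-loaded rats, 17 from day 1 to 4 in controls and 10 from day 1 to 4 in water-loaded rats. A change of sign was seen for the lower Uqcr10 row at 0.011 for water load at day 2. With limma-voom, members called numbered 2 over days in water-loaded rats, 11 from day 1 to 2 in controls and 2 from day 1 to 4 in water-loaded rats. Opposite in sign were Atp5g2 at 0.014 for water load at day 2 and the lower Uqcr10 row at 0.021 for water load at day 2. With the size factors of DESeq2 in edgeR, the lower Uqcr10 row at 0.011 for water load at day 2 had the other sign. Without TMM factors, members called numbered 1 from day 2 to 4 in controls. The complex medians became -0.064 in complex I and -0.67 in complex III from day 1 to 2 in controls, -0.019 in complex I from day 1 to 4 in controls and 0.41 in complex I, -0.012 in complex III, -0.30 in complex IV and 0.39 in complex V from day 1 to 4 in water-loaded rats. A change of sign was seen for the lower Uqcr10 row at 0.0016 for water load at day 2. Without a filter, members called numbered 3 from day 1 to 4 in water-loaded rats. With a filter at a mean of 5 CPM, members called numbered 14 over days in controls, 8 from day 1 to 2 in controls, 10 from day 1 to 4 in controls and 4 from day 1 to 4 in water-loaded rats. Medians there moved to 0.30 in complex V from day 2 to 4 in controls, -0.15 in complex V from day 2 to 4 in water-loaded rats and -0.45 in complex V from day 1 to 4 in water-loaded rats. The sign turned for Cox8a at 0.0057 for water load at day 2 and the lower Uqcr10 row at 0.049 for water load at day 2. With the replicate block, members called numbered 2 over days in water-loaded rats, 5 from day 1 to 2 in controls and 4 from day 1 to 4 in water-loaded rats. The complex medians became -0.48 in complex V from day 1 to 2 in controls and -0.12 in complex III from day 2 to 4 in water-loaded rats. A change of sign was seen for the lower Uqcr10 row at 0.033 for water load at day 2. On log2(FPKM + 1), members called numbered 2 over days in water-loaded rats, 5 from day 1 to 2 in controls, 1 from day 2 to 4 in controls, 10 from day 1 to 4 in controls and 3 from day 1 to 4 in water-loaded rats. Medians that moved were -0.029 in complex III for water load at day 4, -0.14 in complex I from day 1 to 2 in controls, -0.11 in complex III from day 2 to 4 in water-loaded rats, 0.041 in complex I from day 1 to 4 in controls and 0.42 in complex I, -0.009 in complex III, -0.31 in complex IV and 0.36 in complex V from day 1 to 4 in water-loaded rats. Opposite in sign were Atp5g2 at 0.013 for water load at day 2, Sdhd at 0.084 for water load over the days and the lower Uqcr10 row at 0.045 for water load at day 2. On log2(FPKM + 0.1), members called numbered 2 over days in water-loaded rats, 7 from day 1 to 2 in controls, 1 from day 2 to 4 in controls, 10 from day 1 to 4 in controls and 3 from day 1 to 4 in water-loaded rats. Medians there moved to -0.029 in complex III for water load at day 4, -0.14 in complex I from day 1 to 2 in controls, -0.11 in complex III from day 2 to 4 in water-loaded rats, 0.041 in complex I from day 1 to 4 in controls and 0.43 in complex I, -0.009 in complex III, -0.31 in complex IV and 0.36 in complex V from day 1 to 4 in water-loaded rats. The sign turned for Atp5g2 at 0.013 for water load at day 2, Sdhd at 0.083 for water load over the days and the lower Uqcr10 row at 0.050 for water load at day 2. On log2(FPKM + 1) without a filter, members called numbered 2 over days in water-loaded rats, 5 from day 1 to 2 in controls, 1 from day 2 to 4 in controls and 2 from day 1 to 4 in water-loaded rats. The complex medians became -0.029 in complex III for water load at day 4, -0.14 in complex I from day 1 to 2 in controls, -0.11 in complex III from day 2 to 4 in water-loaded rats, 0.041 in complex I from day 1 to 4 in controls and 0.42 in complex I, -0.009 in complex III, -0.31 in complex IV and 0.36 in complex V from day 1 to 4 in water-loaded rats. A change of sign was seen for Atp5g2 at 0.013 for water load at day 2, Sdhd at 0.084 for water load over the days and the lower Uqcr10 row at 0.045 for water load at day 2. With the proximal tubule score in the model, members called numbered 16 over days in controls, 14 from day 1 to 2 in controls and 2 from day 2 to 4 in controls. Medians that moved were -0.32 in complex I, -0.61 in complex III and -0.31 in complex V for water load at day 1, -1.40 in complex III from day 1 to 2 in controls and 0.29 in complex I, -0.044 in complex III and 0.23 in complex V from day 1 to 2 in water-loaded rats. Opposite in sign were Atp5c1 at -0.038 for water load at day 1, Atp5g2 at 0.068 for water load at day 2, Cox6c at -0.023 for water load at day 1, Cox8a at 0.13 for water load at day 2 and the lower Uqcr10 row at 0.41 for water load at day 2. With the number of detected genes in the model, members called numbered 0 over days in water-loaded rats, 0 from day 1 to 2 in controls, 1 from day 2 to 4 in controls and 0 from day 1 to 4 in water-loaded rats. Medians there moved to 0.66 in complex IV for water load at day 4, 0.18 in complex II from day 1 to 2 in water-loaded rats and -0.28 in complex IV and -0.38 in complex V from day 1 to 4 in water-loaded rats. The sign turned for Cox8a at 0.075 for water load at day 2 and the lower Uqcr10 row at 0.017 for water load at day 2. With a term for day 2 numbers 3 and 4, members called numbered 4 over days in water-loaded rats, 0 from day 1 to 2 in controls, 2 from day 2 to 4 in controls, 2 from day 2 to 4 in water-loaded rats, 10 from day 1 to 4 in controls and 5 from day 1 to 4 in water-loaded rats. The complex medians became -0.55 in complex IV from day 2 to 4 in controls and -0.15 in complex III from day 2 to 4 in water-loaded rats. Without day 2 numbers 3 and 4, members called numbered 4 over days in water-loaded rats, 0 from day 1 to 2 in controls, 3 from day 2 to 4 in controls, 1 from day 2 to 4 in water-loaded rats and 5 from day 1 to 4 in water-loaded rats. Medians that moved were -0.62 in complex V from day 1 to 2 in controls, -0.49 in complex IV from day 2 to 4 in controls and 0.17 in complex III from day 2 to 4 in water-loaded rats. Opposite in sign were Atp5g2 at 0.16 for water load at day 2, Cox8a at 0.018 for water load at day 2 and Ndufa7 at 0.12 for water load at day 2. Without day 2 numbers 1 and 2, members called numbered 2 over days in water-loaded rats, 5 from day 1 to 2 in controls, 1 from day 1 to 2 in water-loaded rats and 4 from day 1 to 4 in water-loaded rats. Medians there moved to -1.46 in complex IV from day 1 to 2 in controls, 0.51 in complex IV from day 2 to 4 in controls, -0.94 in complex IV from day 1 to 2 in water-loaded rats and 0.087 in complex III and 0.13 in complex IV from day 2 to 4 in water-loaded rats. The sign turned for the lower Uqcr10 row at 0.084 for water load at day 2. Without the pair of day 1 libraries with low TMM factors, members called numbered 0 over days in water-loaded rats, 0 from day 1 to 2 in controls and 1 from day 2 to 4 in controls. The complex medians became -0.12 in complex I from day 1 to 2 in controls, 0.26 in complex I and 0.28 in complex V from day 1 to 2 in water-loaded rats, 0.087 in complex I from day 1 to 4 in controls and -0.13 in complex III from day 1 to 4 in water-loaded rats. A change of sign was seen for Atp5c1 at -0.045 for water load at day 1 and Ndufc2 at -0.13 for water load at day 1. Leaving out single libraries gave called members of 0 to 12 over days in controls, 0 to 1 over days in water-loaded rats, 0 to 7 from day 1 to 2 in controls, 0 to 8 from day 1 to 4 in controls and 0 to 5 from day 1 to 4 in water-loaded rats. Medians then ran from -0.29 to 0.26 in complex I, -0.52 to 0.087 in complex III and -0.34 to 0.21 in complex V for water load at day 1, -0.57 to -0.049 in complex III for water load at day 4, -0.63 to -0.10 in complex I from day 1 to 2 in controls, 0.19 to 0.73 in complex III from day 2 to 4 in controls, -0.28 to 0.27 in complex I, -0.63 to -0.058 in complex III and -0.26 to 0.30 in complex V from day 1 to 2 in water-loaded rats, -0.59 to 0.042 in complex III and -0.69 to -0.17 in complex V from day 2 to 4 in water-loaded rats, -0.55 to 0.13 in complex I and -0.59 to -0.0072 in complex III from day 1 to 4 in controls and -0.61 to -0.11 in complex III and -0.44 to 0.22 in complex V from day 1 to 4 in water-loaded rats. Log2 differences ran from -0.25 to 0.28 for Atp5g2 for water load at day 2, -0.029 to 0.64 for Cox6c for water load at day 1, -0.11 to 0.082 for Cox8a for water load at day 2, -0.23 to 0.16 for Sdhd for water load over the days and -0.19 to 0.16 for the lower Uqcr10 row for water load at day 2.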

Other observations

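Regulators of mitochondrial biogenesis and genes that link the cycle to the chain gave further values. Over the average of days, 5 of 17 biogenesis regulators were higher after water loading and 12 lower. Idh3g, a subunit of the NAD-dependent isocitrate dehydrogenase, was at 165 CPM ± 78.1 (SD, n = 10) in control and 254 ± 85.2 (n = 10) in water-loaded rats. Vdac3, an outer membrane channel, differed by 0.59 (SE 0.22) on the log2 scale. Mt-cytb, the mitochondrially encoded cytochrome b of complex III, was at 10020 CPM ± 3472 (n = 10) and 6976 ± 2576 (n = 10), and Mt-co1, the core of complex IV, at 19920 ± 13660 (n = 10) and 31510 ± 21440 (n = 10). None of these 4 genes passed the test in edgeR (adjusted p from 0.190 to 0.463).

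Atp5hl1 had a profile of its own, with counts near the limit in nearly all libraries. It was at 4.8 CPM in Day 1 control 3 and 3.9 CPM in Day 1 water-loaded 3, and at or below 0.34 CPM in the other 18 libraries.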
